A study of Homo sapiens with 6 samples.

Results

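The genes of the SIN3 accessory subunits were examined for chromatin accessibility in MDA-MB-231 cells with SAP30 intact (Parental) or knocked out (SAP30-KO1). The 10 genes were ARID4A, ARID4B, BRMS1, BRMS1L, ING1, ING2, PHF12, MORF4L1, KDM5A and SINHCAF. They were taken by name from the known composition of the complex, not by any measured value, though with earlier results of these data known. They are 10 of the 20176 protein-coding genes of the annotation (GENCODE release 44 mapped to GRCh37, which is hg19). Accessibility was read from ATAC-seq, in which a transposase inserts adapters into open DNA. MDA-MB-231 is an established cell line of human triple-negative breast cancer. SAP30-KO1 carries a CRISPR/Cas9 knockout of SAP30 and is, per the study's methods, a mix of several expanded single knockout cells, kept under puromycin for a few days at the start, while the parental cells are unedited. The study's methods give DMEM or a DMEM mix, with fetal bovine serum, for its cell lines and do not say which MDA-MB-231 received. Each group had 3 libraries, and the labels do not say whether these came from separate cultures, so the spread between them may be technical. Promoters of genes that mark mesenchymal-like breast cancer cells had a peak in all 6 libraries for 4 of 5 genes (VIM, CD44, CAV1 and MSN). The remaining gene of that list, AXL, had one in 3 libraries. Promoters of 5 luminal genes (ESR1, PGR, GATA3, FOXA1 and KRT19) had none with a peak in all 6 libraries, but 4 had one in some library. GATA3 had a peak in 5 libraries, FOXA1 in 2, ESR1 and PGR in 1 each, and KRT19 in none. The 2 lists thus overlapped, since GATA3 had a peak in more libraries than AXL. Across the annotation, 34.5% of protein-coding genes reached all 6 libraries and 27.8% reached 1 to 5. A promoter peak is not expression. The promoter of SAP30 itself had a peak in every library, with percentile ranks among all peaks of 84.7, 64.8 and 81.3 in the parental and 71.8, 49.5 and 89.5 in the SAP30-KO1 libraries. These overlap, and lists of summits do not show the edit, so they do not check the knockout.

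SIN3 proteins are scaffolds that have no known DNA-binding activity of their own and bring histone deacetylases to chromatin. Around a core of SIN3A or SIN3B, HDAC1, HDAC2, RBBP4, RBBP7, SAP18, SAP30 and SUDS3, accessory subunits read histone marks, add further enzymes or stabilise the assembly. ARID4A and ARID4B are paralogs with chromatin-reader domains, and ARID4A was first known as a retinoblastoma-binding protein. BRMS1 was named as a suppressor of breast cancer metastasis, and BRMS1L is its paralog. ING1 and ING2 carry a PHD finger that binds trimethylated lysine 4 of histone H3. PHF12 is a PHD-finger protein that works with the chromodomain protein MORF4L1, KDM5A removes methyl groups from lysine 4 of histone H3, and SINHCAF, also known as FAM60A, is a further associated subunit.

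The promoters of ARID4A, BRMS1L and BRMS1 are printed here because ARID4A held the strongest and BRMS1 the weakest promoter peak of the 10 genes, and BRMS1L is the paralog of BRMS1. Each run spans 200 bases before and 30 bases from the start site on, on the gene's own strand of GRCh37, 5′ to 3′. The start site is the most upstream one beside the strongest summit. Capitals mark matches, on either strand, to any of 8 motifs searched: CCAAT (the NF-Y box), GGGCGG (the GC box), CCGGAA (the ETS core), GCATGCGC (known for NRF1), TGACGTCA (the cAMP response element), TGANTCA (known for AP-1), CACGTG (the E-box) and AAGATGG (known for YY1). ARID4A lies at chr14:58765022-58765251 (plus strand), BRMS1L at chr14:36295344-36295573 (plus strand) and BRMS1 at chr11:66112567-66112796 (minus strand).
ARID4A: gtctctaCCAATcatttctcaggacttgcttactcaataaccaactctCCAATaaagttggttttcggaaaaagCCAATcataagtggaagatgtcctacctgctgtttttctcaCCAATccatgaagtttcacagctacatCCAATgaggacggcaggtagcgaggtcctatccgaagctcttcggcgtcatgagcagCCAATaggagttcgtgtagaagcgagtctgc
BRMS1L: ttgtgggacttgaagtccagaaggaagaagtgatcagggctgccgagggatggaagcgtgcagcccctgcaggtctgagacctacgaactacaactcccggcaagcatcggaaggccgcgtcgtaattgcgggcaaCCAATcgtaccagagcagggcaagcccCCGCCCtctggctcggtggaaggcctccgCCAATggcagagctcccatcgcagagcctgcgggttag
BRMS1: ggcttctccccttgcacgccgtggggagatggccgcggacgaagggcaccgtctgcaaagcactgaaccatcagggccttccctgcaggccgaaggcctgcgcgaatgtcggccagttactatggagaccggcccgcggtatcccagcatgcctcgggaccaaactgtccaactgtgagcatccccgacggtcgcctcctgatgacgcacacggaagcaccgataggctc

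The ARID4A window held 6 matches to CCAAT, the box bound by NF-Y. Of the 9 member promoters searched, BRMS1L held 2 and PHF12 held 1, whereas BRMS1, ING1, ING2, MORF4L1, KDM5A and SINHCAF held none. Over the same length at the canonical start sites of 19862 protein-coding genes, 31.6% held at least 1 match. Placed on the canonical start site in the same way, the ARID4A window held 4 matches, BRMS1L 2 and PHF12 0, and 0.755% of promoters held at least 4. The other motifs were counted in the members only beside the strongest summit, and over all promoters only at canonical start sites. All 6 ARID4A summits lay inside the printed window, whereas the BRMS1L window held 1 promoter summit and the BRMS1 window 0. GGGCGG, the core of a GC box, matched in 5 of these 9 genes (BRMS1L, ING2, MORF4L1, KDM5A and SINHCAF), against 58.1% of all promoters. CCGGAA, the core of an ETS site, matched in KDM5A alone among them, where its matches, 1 on each strand, overlap, and in 20.2% of all promoters. The BRMS1 window held no match to any of the 8 motifs, and the NRF1, cAMP response element, AP-1, E-box and YY1 motifs matched in none of the 9, against 3.93%, 2.57%, 4.26%, 7.64% and 4.94% of all promoters in that order. The GC content was 46.1% in the ARID4A window and 64.3% in the BRMS1 window, against a median of 64.8% over all promoters. A match describes letters in this window only.

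The deposited lists give 1 summit per peak with a score, the −log10 of the q value of the authors' peak caller. The lists held 29762 to 40650 summits, and their depth in reads is unknown. Because lists called separately share no scale, each score was turned into its percentile rank within its own list, from 0 to 100, and a gene without a promoter peak was given rank 0. A promoter was all sequence within 1 kb of any start site of the gene. The windows of the 10 genes ran from 10 kb upstream of the gene to its end and covered 793.6 kb in all. Parental libraries had 16, 17 and 16 summits there, SAP30-KO1 libraries 11, 18 and 15. The lowest number, and the lowest share of the list (0.0370%), came from the shortest list, SAP30-KO1 replicate 1, with 29762 summits. Parental replicate 2, with a list of 30477, had 17 in the windows. The mean share of the list in the windows was 0.0490% ± 0.00620 for the parental and 0.0417% ± 0.00409 for the SAP30-KO1 libraries (SD, n = 3), with overlapping ranges.

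Of the 10 genes, 7, 8 and 7 had a promoter peak in parental replicates 1 to 3, and 7, 9 and 8 in SAP30-KO1 replicates 1 to 3. The 5 genes ARID4A, ARID4B, BRMS1L, ING1 and ING2 had one in all 6 libraries, and the other 5 in 1 to 5 libraries. For protein-coding genes at large these shares were 34.5% (all 6), 27.8% (1 to 5) and 37.7% (none). No member had ranks that were apart between the groups, that is, all 3 values of one group above all 3 of the other. Of the 12572 protein-coding genes that had a promoter peak somewhere, 6.01% were apart with higher ranks in SAP30-KO1 and 4.57% with lower ranks. The median difference between group means, SAP30-KO1 minus parental, was 0.926 percentile points over the 10 members and 0.673 over all 12572 genes, whose interquartile range was -7.26 to 9.76. The median over the members moved with the settings. It was 4.71 with the canonical start site alone and 3.44 with q values of 0.0001 or less. With ranks within the chromosome arm it was 2.21, and with promoters of 500 bp 0.461. The median over all genes is given for the main setting only, so these values have no such counterpart. With 3 libraries per group the exact permutation test cannot give a p under 0.1. Its adjusted p, Benjamini-Hochberg over all 12572 genes, was 1 for each member.

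**Figure D1:**
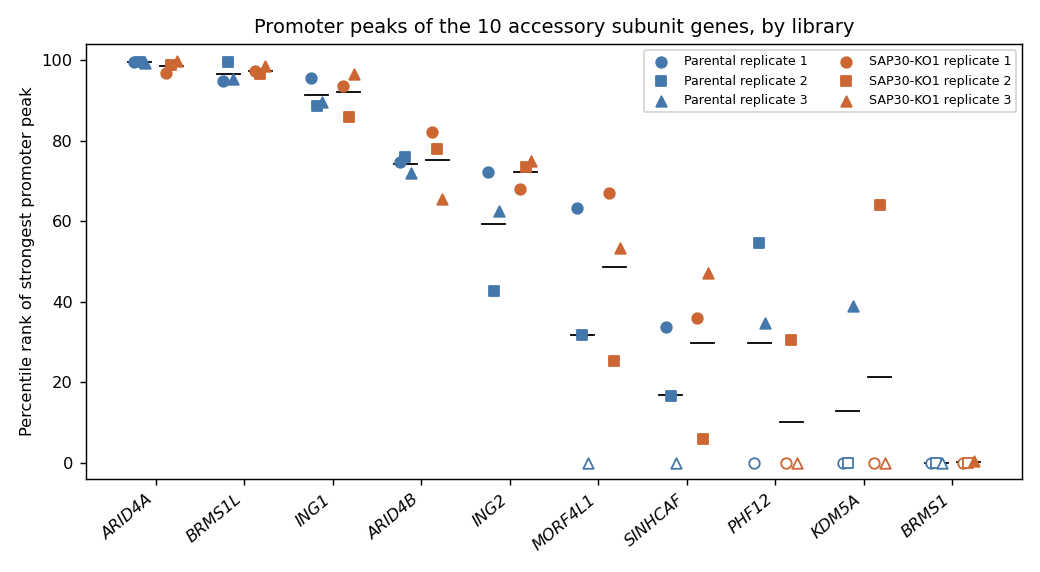
Percentile rank (0 to 100, y axis) of the strongest promoter peak of each accessory subunit gene (x axis, ordered by mean), with 1 marker per library, parental in blue and SAP30-KO1 in orange. Black bars are group means and open markers at 0 are libraries without a promoter peak; the markers of both groups overlap for every gene.

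**Figure D2:**
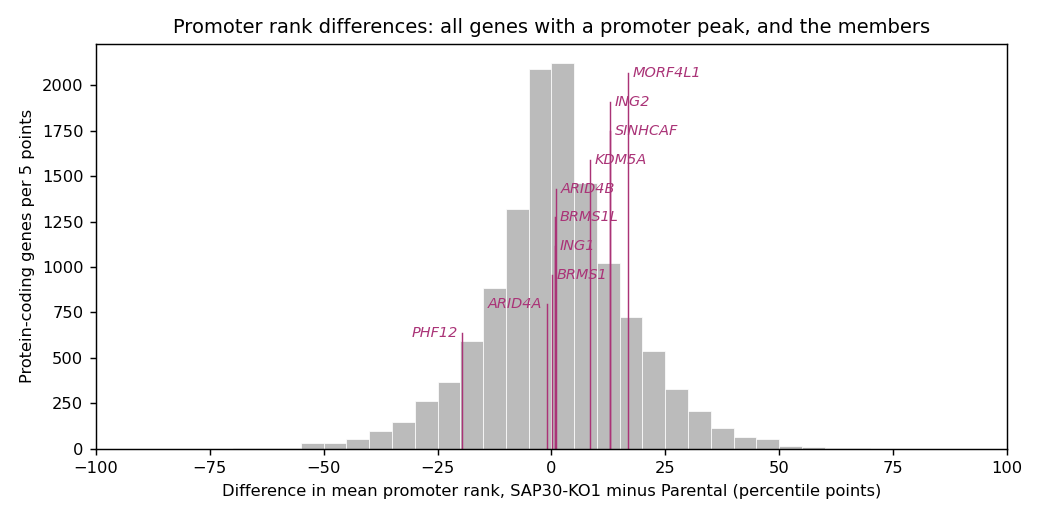
Differences in mean promoter rank, SAP30-KO1 minus parental, for the 12572 protein-coding genes tested (grey bars, genes per 5 percentile points). Pink lines mark the 10 members, from PHF12 at -19.6 to MORF4L1 at 16.9; line height has no meaning.

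ARID4A and ARID4B encode paralogous chromatin readers, and both promoters had a peak in every library, at different heights. ARID4A (chromosome 14, 58765222 to 58840605, plus strand) had the highest ranks of the 10 genes. Parental libraries gave 99.6, 99.5 and 99.2, and SAP30-KO1 libraries gave 96.9, 98.9 and 99.7. The SAP30-KO1 libraries thus held both the lowest and the highest of the 6 values, and the difference of means was -0.95 (exact permutation test, two-sided, n = 3, p = 0.4). The mean over all 6 libraries exceeded that of 99.1% of the genes tested. No other peak lay anywhere in its window, in any library. The summits fell at -226 to -165 bp from the canonical start site, between ARID4A and the opposite-strand start of ARMH4 at -416 bp. This range of 61 bp was tighter than that of all but 2.67% of the 6966 genes that every library gave a promoter peak, whose median was 324 bp.

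ARID4B (chromosome 1, 235294949 to 235491534, minus strand) ranked at 74.7, 75.9 and 72.1 in parental and at 82.1, 77.9 and 65.6 in SAP30-KO1 cells. The SAP30-KO1 values spread on both sides of the parental ones, with a difference of 1.003 (exact permutation test, two-sided, n = 3, p = 0.9). Its strongest summits spread over 863 bp, a wider range than that of 87.7% of genes, and 1 locus covered them together with the starts of GGPS1 on the opposite strand. In SAP30-KO1 replicate 1 the single promoter summit lay 833 bp from the nearest ARID4B start site. With a promoter window of 500 bp that library had no peak and the difference became -26.4. Inside the gene, a locus 167053 bp downstream of the start, at the promoter of RBM34 within an ARID4B intron, had a peak in all 6 libraries. Its ranks were 85.8, 93.9 and 74.7 in parental and 47.4, 80.5 and 53.6 in SAP30-KO1 cells, so that SAP30-KO1 replicate 2 overlapped the parental range (difference -24.3; exact permutation test, two-sided, n = 3, p = 0.2). An intronic locus 74624 bp downstream had peaks in parental replicates 1 and 3, at ranks of 35.8 and 38.9, and in no SAP30-KO1 library.

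BRMS1L and BRMS1 stood at opposite ends. BRMS1L (chromosome 14, 36295544 to 36401531, plus strand) ranked at 94.8, 99.5 and 95.4 in parental and at 97.4, 96.4 and 98.4 in SAP30-KO1 cells. Both groups lay in the top of their lists and overlapped, with a difference of 0.85 (exact permutation test, two-sided, n = 3, p = 0.6). The position of the summit, which the ranks do not use, differed without overlap. Relative to the canonical start site the parental summits were at -253, 53 and -1 bp and the SAP30-KO1 summits at 126, 121 and 97 bp, a mean shift of 181.7 bp downstream (exact permutation test, two-sided, n = 3, p = 0.1, the smallest possible). BRMS1L was the only one of the 5 members with a peak in all 6 libraries whose positions were apart. Over the 6966 genes, 5.25% were apart with the summit further downstream in SAP30-KO1 and 4.69% with it further upstream. An intronic locus 52488 bp into the gene had a peak in parental replicates 1 and 3 (ranks 61.0 and 48.0) and in SAP30-KO1 replicates 1 and 2 (31.4 and 52.1).

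BRMS1 (chromosome 11, 66104804 to 66112596, minus strand) had no peak in its window in 5 libraries. In SAP30-KO1 replicate 3 it had 1 summit, in an exon 103 bp downstream of the canonical start, with a score of 2.09 and a rank of 0.579, at the bottom of that list. The group means were 0 and 0.193, and the overall mean exceeded that of 0.35% of the genes tested. Ranked within the long arm of chromosome 11 instead of the whole list, its difference was 0.259. A missing peak says that none was called at this depth, not that the promoter was closed.

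The genes of the PHD-finger proteins ING1 and ING2 had a peak at a start site in each library. ING1 (chromosome 13, 111365083 to 111375686, plus strand) had 2 separate promoter loci. The stronger, 1832 to 1938 bp downstream of the canonical start and beside a later start site, ranked at 95.6, 88.6 and 89.7 in parental and at 93.6, 85.9 and 96.6 in SAP30-KO1 cells. These ranges overlapped (difference 0.73; exact permutation test, two-sided, n = 3, p = 0.9). Its 6 summits lay within 106 bp of each other.

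The other ING1 promoter locus lay upstream, where ING1 and CARS2 start in opposite directions, and the groups did not overlap there. Parental replicate 1 had no peak, and parental replicates 2 and 3 had ranks of 13.1 and 10.3. The SAP30-KO1 libraries had ranks of 20.4, 45.6 and 60.6, and each was above each parental library. The means were 7.83 ± 6.92 and 42.2 ± 20.4 (SD, n = 3), a difference of 34.4 (two-sided exact permutation p = 0.1, the lowest this design allows). This was 1 of 15 promoter loci of the 10 genes, and no other was apart. Of the 16910 union loci at promoters of any gene, 5.5% were apart with higher and 4.56% with lower ranks in SAP30-KO1. With the canonical start site alone in place of all start sites, this locus gives the promoter rank of ING1. It was picked out after its values were seen. Another locus in the window, at -7481 bp beside a further start site of CARS2, was present in all 6 libraries with overlapping ranks of 72.7 to 96.0 in parental and 74.5 to 89.5 in SAP30-KO1 cells.

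ING2 (chromosome 4, 184426211 to 184433582, plus strand) ranked at 72.2, 42.8 and 62.6 in parental and at 68.0, 73.4 and 74.9 in SAP30-KO1 cells. The parental libraries had the lowest values, but parental replicate 1 lay inside the SAP30-KO1 range. The means were 59.2 ± 15.0 and 72.1 ± 3.64 (SD, n = 3), with a difference of 12.9 (exact permutation test, two-sided, p = 0.2). Without parental replicate 1 or without SAP30-KO1 replicate 1 the groups were apart, with higher ranks in SAP30-KO1. In these fits 12.6% and 14.4% of all genes, in that order, were apart in the same direction. The strongest summit of each library lay upstream of ING2, between -566 and -104 bp, and the divergent noncoding gene ING2-DT starts at -564 bp. Parental replicate 1 also had a weaker summit in an exon at 1123 bp, a separate locus. With promoters of 500 bp the difference was -1.09: SAP30-KO1 replicate 2 then had no peak, and the ranks of parental replicate 1 and SAP30-KO1 replicate 3 became those of weaker summits, 28.2 and 62.2.

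**Figure D3:**
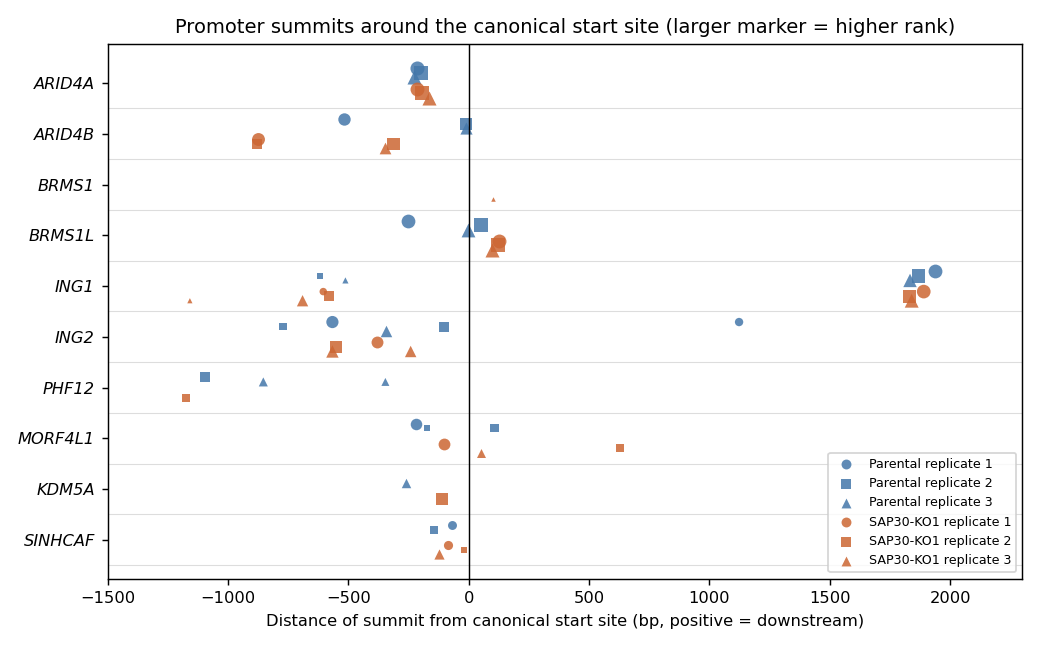
Promoter summits of each gene by distance from its canonical start site (x axis, bp, downstream positive), 1 row of markers per library, with marker size growing with rank. ARID4A summits stack within 61 bp, BRMS1L summits of SAP30-KO1 lie downstream of all parental ones, and ING1 shows its upstream and its downstream locus; promoter summits of MORF4L1 at a distant start site are outside the frame.

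PHF12 and MORF4L1, whose proteins act together, each lacked a promoter peak in some libraries. PHF12 (chromosome 17, 27232268 to 27278789, minus strand) had no promoter peak in parental replicate 1 and ranks of 54.6 and 34.8 in the other parental libraries. Of the SAP30-KO1 libraries, replicate 2 had a peak with a rank of 30.5, and replicates 1 and 3 had none. The difference of -19.6 was the largest in the negative direction among the 10 genes, and both groups held libraries at 0 (exact permutation test, two-sided, n = 3, p = 0.4). Without parental replicate 1 the ranks were apart, with a difference of -34.5, and 7.67% of all genes were then apart in the same direction. Without parental replicate 2 the difference was -7.20. The summits lay at -1174 to -346 bp from the canonical start, beyond the opposite-strand start of PIPOX at -342 bp.

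MORF4L1 (chromosome 15, 79102829 to 79190481, plus strand) ranked at 63.2 and 31.9 in parental replicates 1 and 2, and had no promoter peak in parental replicate 3. The SAP30-KO1 ranks were 67.0, 25.4 and 53.3, and their range held both parental values above 0 (difference 16.9; exact permutation test, two-sided, n = 3, p = 0.6). Parental replicate 3 set most of this difference, which was 1.03 without it. In SAP30-KO1 replicate 3 the strongest promoter summit was not at the main start but at -61505 bp, near a distant first exon of MORF4L1 and the start of ADAMTS7, and the summit at the main start ranked at 34.1. The locus at the main start had a peak in 2 libraries of each group, with a difference of 2.02. The summit of SAP30-KO1 replicate 2, ranked at 25.4, lay 629 bp downstream of the canonical start and formed a separate locus. With the canonical start site alone, which takes in that summit, the difference was 10.5. An intronic locus at -12763 bp had a peak in every library except SAP30-KO1 replicate 1. It ranked at 25.9, 21.7 and 73.2 in parental and at 37.6 and 27.5 in the other SAP30-KO1 libraries.

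KDM5A (chromosome 12, 389223 to 498486, minus strand), the demethylase gene, had 1 promoter peak in each group. Parental replicate 3 had a rank of 38.9 and SAP30-KO1 replicate 2 a rank of 64.1, and the other 4 libraries had no peak in the whole window of 119.3 kb. The difference was 8.42, and -13.0 when SAP30-KO1 replicate 2, the longest list, was left out (exact permutation test with all libraries, two-sided, n = 3, p = 1). Both summits lay upstream, at -259 and -110 bp, beyond the opposite-strand start of CCDC77 at -28 bp. SINHCAF (chromosome 12, 31433518 to 31479992, minus strand) ranked at 33.8 and 16.6 in parental replicates 1 and 2, with no peak in replicate 3, and at 36.0, 5.92 and 47.2 in SAP30-KO1 cells. SAP30-KO1 replicate 2 was below both parental libraries that had a peak (difference 12.9; exact permutation test, two-sided, n = 3, p = 0.4). Without SAP30-KO1 replicate 2 the ranks were apart, with a difference of 24.8, and 8.66% of all genes were then apart in the same direction. The 5 SINHCAF summits lay at -145 to -19 bp from the canonical start.

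**Figure D4:**
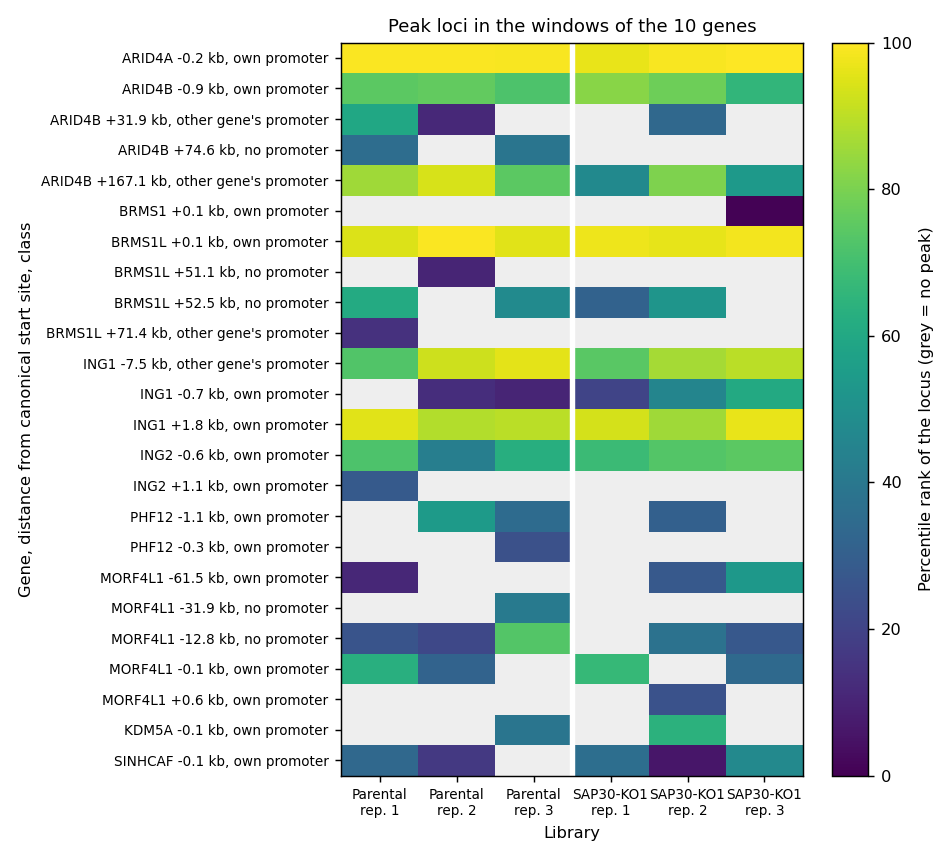
Percentile rank (colour, 0 to 100; grey where no peak was called) of the 24 peak loci in the windows of the 10 genes (rows, with distance from the canonical start site) in the 6 libraries (columns). ARID4A, BRMS1L and the downstream ING1 locus are high in all 6, and most loci outside the members' own promoters have gaps in both groups.

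Outside the members' own promoters the windows held 9 union loci, where a union locus is a run of overlapping windows of 250 bp on each side of the summits of all 6 libraries. All 9 were in ARID4B, BRMS1L, ING1 and MORF4L1, and 4 of them were at promoters of other genes. Of these 9 loci, 2 had a peak in all 6 libraries, at RBM34 and CARS2. None was present in all 3 libraries of one group and absent from the other, which was rare everywhere: of the 39509 union loci outside promoters 385 occurred only in the parental group and 664 only in SAP30-KO1, and of the 16910 at promoters 109 and 145. None had ranks apart. Among the loci outside promoters, with which 5 of the 9 compare, 6.01% were apart with higher and 4.14% with lower ranks in SAP30-KO1, and the shares for promoter loci, with which the other 4 compare, were 5.5% and 4.56%. Of the 5 member loci outside all promoters, none had a peak in all 6 libraries, against 22.9% of such loci in the genome. Of the 4 at promoters of other genes, 2 had a peak in all 6, against 43.0% of the 16910 promoter loci.

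An opposite-strand start site within 1 kb of the canonical start was a common feature of these genes. It was found for 7 of the 10, ARID4A (ARMH4), ARID4B (GGPS1), BRMS1L (ENSG00000258938), ING1 (CARS2), ING2 (ING2-DT), PHF12 (PIPOX) and KDM5A (CCDC77), and for 29.3% of protein-coding genes. Peaks beside both starts of such a pair cannot be assigned to one of the paired genes. ING1 differs in part: its stronger locus had no start of another gene within 1 kb. The ING1 locus shared with CARS2 had a peak in 5 libraries. Of these 7, ARID4A, ARID4B, BRMS1L, ING1 (at its stronger, unshared locus) and ING2 had a promoter peak in all 6 libraries, PHF12 in 3 and KDM5A in 2. Of the 3 without such a neighbour, MORF4L1 and SINHCAF had one in 5 libraries and BRMS1 in 1. The share reaching all 6 libraries was not computed for all genes with, or without, such a neighbour. A link between a neighbour and a constant peak was therefore not tested and cannot be read from these 10 genes.

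The core subunit genes were set beside the accessory ones. Of 11 core genes (SIN3A, SIN3B, SAP30, SAP30L, SAP18, SAP130, SUDS3, HDAC1, HDAC2, RBBP4 and RBBP7), 6 had a promoter peak in all 6 libraries, against 5 of 10 accessory genes. RBBP4, a histone-binding subunit, was the only core gene with ranks apart, and they were lower in SAP30-KO1. This is 1 of 11 genes, beside 4.57% of all genes tested. RBBP4 ranked at 28.8, 25.3 and 60.2 in the parental libraries and at 8.45, 24.6 and 0 with SAP30 knocked out, and parental replicate 2 and SAP30-KO1 replicate 2 were less than 1 point apart (exact permutation test, two-sided, n = 3, p = 0.1, the smallest possible). No core gene was apart with higher ranks, beside 6.01% of all genes tested. The median difference, SAP30-KO1 minus parental, was nevertheless above 0 over the 11 core genes, at 6.19 percentile points. It was 0.926 over the accessory genes and 0.673 over all genes tested.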

How the data were processed

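ATAC-seq libraries of parental and SAP30-KO1 cells (3 each) were grouped by their labels. The authors trimmed single-end reads of 75 bp with Trim Galore 0.4.5, aligned them to hg19 with Bowtie2 2.3.3.1, dropped duplicate alignments (Picard) and used MACS2 2.1.0 to call peaks at a q value of 0.05 (processing notes and methods). The deposited lists hold, for each library on its own, 1 summit per peak with the −log10 of its q value. Transposase shift and blacklisting are not given in the sources used here. No reads are in the lists, so depth and counting error are unknown.

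Ranks, union loci, summit positions and exact permutation tests (20 assignments, two-sided) were computed in Python 3.11.15 with numpy 2.4.6 and pandas 2.3.3, and the code was tested on simulated data. Promoter sequence was read from GRCh37. The promoter sequence of ARID4B is not reported here. Chromosome arms were divided at the largest sequence gap. The members, the gene lists and the tests were chosen with earlier results of these data known, and the comparison of summit positions, of opposite-strand start sites and of single promoter loci was added after the values were seen. All 10 members and the core genes with ranks apart are named. No p is given for values summed over the members.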

Additional observations from a re-analysis of the deposited data

How the results depend on the processing

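The lists give no depth, and 3 libraries per group allow no p under 0.1, so each alternative is read by sign and magnitude. The difference in the share of summits in the windows, -0.00735 percentage points as reported, was -0.000519 with q values of 0.0001 or less. The difference in members with a promoter peak, 0.667 as reported, was -0.333 when every list was cut to an equal number of its best peaks. Under that setting the differences of ARID4B (-0.0756) and ING1 (-0.295) also changed direction, and with promoters of 500 bp those of ARID4B (-26.4) and ING2 (-1.09) did. With the canonical start site alone 1 member, ING1, had higher ranks apart, with a difference of 34.4. Under that setting 6.13% of all genes were apart with higher and 4.39% with lower ranks in SAP30-KO1. Windows from 50 kb upstream, which are longer, held 18 loci outside the promoters in place of 9. What causes these changes was not tested.

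With 1 library left out, the share difference ran from -0.0101 to -0.00397, members with a peak from 0.167 to 1.17, the median shift from 0.219 to 4.13, members apart from 0 to 1 in each direction, loci outside promoters from 8 to 9, those in parental cells only from 0 to 1 and those in SAP30-KO1 only stayed at 0. Fewer libraries make ranks easier to tell apart, and 6.50% to 14.4% of all genes were then apart in one direction in those fits that called a member. The members were ING2 (without Parental replicate 1 or SAP30-KO1 replicate 1), PHF12 (without Parental replicate 1), BRMS1L (without Parental replicate 2), SINHCAF (without SAP30-KO1 replicate 2), and ARID4A and ARID4B (without SAP30-KO1 replicate 3). The difference ran from -2.42 to 5.79 for ARID4B, -0.0121 to 2.31 for BRMS1L, -1.55 to 3.80 for ING1 and -13.0 to 21.4 for KDM5A, and kept its direction or was 0 for the other 6 members. Same-numbered libraries did not deviate together (correlation of deviations from the group means over 6966 genes, -0.0286 to 0.0115), and no number was used as a pair in the report. Paired by number all the same, the mean differences are equal by construction. With this replicate block no member had 3 differences of one sign, whereas 11.8% of all genes tested had all 3 above 0 and 9.43% all 3 below 0, and the smallest sign-flip p was 0.5 (exact permutation, 8 assignments, smallest possible 0.25).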
